A study of Mus musculus with 8 samples.

Results

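The kinesin superfamily was followed in lumbar dorsal root ganglia of mice, with and without a cut sciatic nerve, and the motors of axonal transport were set against those of the mitotic spindle. Kinesins were taken as every gene row whose symbol starts with Kif followed by a digit or by c, which gave 42 of 21878 rows. Of these, 41 are motor genes and 1, Kif1bp, is a kinesin-binding protein that shares the name and is no motor. The 41 motors comprised 9 axonal transport kinesins, 11 mitotic kinesins and 21 others.

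Kinesins hydrolyse ATP to move along microtubules or to take them apart. Neurons, which do not divide, depend on them to carry vesicles, mitochondria and synaptic precursors from the cell body into the axon, and sensory neurons of the dorsal root ganglion do so over very long distances. Another set of kinesins assembles the spindle, moves chromosomes and completes cell division, and its genes are transcribed mainly in cells that are about to divide.

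RNA-seq was made in duplicate from lumbar 4 and 5 ganglia of C57BL/6 mice, collected 3 days after surgery. All mice carried floxed alleles of Myh9 and Myh10, which encode non-muscle myosin II heavy chains. Mice with the floxed alleles alone (WT in the labels, so not wild type at these loci) and mice that also carried Advillin-Cre (dKO) each had either sham surgery or sciatic nerve axotomy (SNI), giving 4 groups with 2 libraries each. Advillin-Cre acts chiefly in peripheral sensory neurons, so other cells of the ganglion can keep both genes. The labels do not tie the 2 libraries of a group to different animals, so the tests measure the spread between libraries, which may be technical. The sources used here give neither age nor sex of the mice.

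The values are FPKM, fragments per kilobase of transcript and per unit of mapped fragments. They are comparable between genes because they are per length, but their read totals are unknown, so no counting error can be given. Total FPKM per library was 278310 to 339920, and 11696 to 12478 genes reached 1 FPKM. The 12 neuron markers checked were present in every library, among them Rbfox3 at 3.35 to 16.8 FPKM and Nefl at 407 to 2014 FPKM. Library 2 of WT sham carried muscle transcripts, with 8 muscle markers summing to 506 FPKM against 1.70 to 12.5 FPKM elsewhere. Transcripts of 4 Y-linked genes summed to 22.8 to 38.7 FPKM in WT sham and dKO SNI and to at most 0.0109 FPKM in WT SNI and dKO sham. Each of the 4 pairwise comparisons below therefore also compares libraries with and without Y-linked transcripts, and the 2 cannot be told apart there. Comparisons averaged over genotype or over surgery hold 2 libraries of each kind on both sides.

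Of the 9 axonal transport kinesins, 8 were at 35.1 FPKM or more in every sham library and Kif21b was at 1.43 to 1.81 FPKM. After axotomy, 2 of the 9 were called lower in WT, against 9.38% of all genes tested. In dKO the former 8 were called lower, against 24.6%. The 11 mitotic kinesins were under 1 FPKM each in WT sham. Of the 10 that could be tested, 5 were called higher after axotomy in WT (13.6% of all genes tested) and 10 in dKO (23.8%). Of these 10, 7 reached the 1 FPKM needed for testing only in axotomy libraries, so the counts are no support for the set. Summed over the 9 genes, axonal kinesins were at 691 and 738 FPKM in WT after sham surgery and 547 and 489 after axotomy, and in dKO at 600.0 and 535 after sham surgery and 343 and 284 after axotomy. Summed over the 11 genes, mitotic kinesins were at 4.28 and 4.66 FPKM in WT after sham surgery and 10.7 and 16.4 after axotomy, and in dKO at 6.35 and 8.94 after sham surgery and 30.3 and 31.1 after axotomy. The axonal sum lay below the sham values of the same genotype in every axotomy library, and the mitotic sum above them. The axonal sum was 161 and 158 times the mitotic sum in WT after sham surgery and 51.2 and 29.9 times after axotomy, and in dKO 94.4 and 59.8 times after sham surgery and 11.3 and 9.11 times after axotomy. In bulk tissue, fewer cells of a type and less RNA per cell cannot be told apart, which applies to every level below.

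Among the axonal members, kinesin-1 heavy chains were the most abundant family. Kif5a, the neuronal kinesin-1 heavy chain, was at 164 and 178 FPKM in WT after sham surgery and 114 and 89.1 after axotomy, and in dKO at 122 and 128 after sham surgery and 58.6 and 43.9 after axotomy. It was the highest axonal kinesin in all 4 sham libraries and in WT SNI 1, and Kif5c was above it in WT SNI 2 and in both dKO SNI libraries. The gene is protein-coding (ENSMUSG00000074657.5, chr10:127225696-127263348, minus strand, GRCm38). Kif5c, the other neuron-enriched heavy chain, was at 105 and 114 FPKM in WT after sham surgery and 101 and 90.0 after axotomy, and in dKO at 93.6 and 86.9 after sham surgery and 62.9 and 53.0 after axotomy. Kif5b, the heavy chain made in most cell types, was at 79.4 and 76.2 FPKM in WT after sham surgery and 49.0 and 61.5 after axotomy, and in dKO at 75.7 and 55.2 after sham surgery and 46.4 and 46.2 after axotomy. The axotomy libraries lay below the sham libraries of the same genotype for each of the 3 heavy chains.

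Kinesin-3 motors carry synaptic vesicle precursors and, for Kif1b, also mitochondria. Kif1a was at 106 and 118 FPKM in WT after sham surgery and 85.5 and 69.2 after axotomy, and in dKO at 88.7 and 82.0 after sham surgery and 50.7 and 41.1 after axotomy. Kif1b was at 66.1 and 75.6 FPKM in WT after sham surgery and 53.8 and 47.3 after axotomy, and in dKO at 57.6 and 47.6 after sham surgery and 30.04 and 23.8 after axotomy. Both stood lower after axotomy without overlap, and both were lowest in dKO SNI.

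Kinesin-2 works as a pair of Kif3a with Kif3b or Kif3c. Kif3a was at 61.0 and 54.6 FPKM in WT after sham surgery and 49.4 and 51.9 after axotomy, and in dKO at 60.7 and 51.5 after sham surgery and 37.4 and 31.3 after axotomy. Kif3c was at 38.6 and 46.1 FPKM in WT after sham surgery and 41.3 and 31.0 after axotomy, and in dKO at 35.1 and 35.6 after sham surgery and 23.2 and 17.5 after axotomy. Kif3c overlapped between WT sham and WT SNI and separated in dKO. Of its exon bases, 35.3% overlap an antisense gene, 1110002L01Rik, and because strand was not stated for the counting, reads of the pair cannot be told apart.

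Kinesin-4 members Kif21a and Kif21b restrain microtubule growth. Kif21a was at 69.4 and 73.2 FPKM in WT after sham surgery and 51.2 and 46.6 after axotomy, and in dKO at 65.3 and 46.6 after sham surgery and 31.1 and 24.6 after axotomy. Kif21b differed from the other axonal members in level and direction, with 1.43 and 1.81 FPKM in WT after sham surgery and 1.74 and 1.98 after axotomy, and in dKO at 1.51 and 1.69 after sham surgery and 2.72 and 2.17 after axotomy. In WT sham the order of mean levels ran from Kif5a over Kif1a, Kif5c, Kif5b, Kif21a, Kif1b, Kif3a and Kif3c to Kif21b. The ranges of Kif1a and Kif5c overlapped in that group, as did those of Kif21a and Kif1b.

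**Figure D1:**
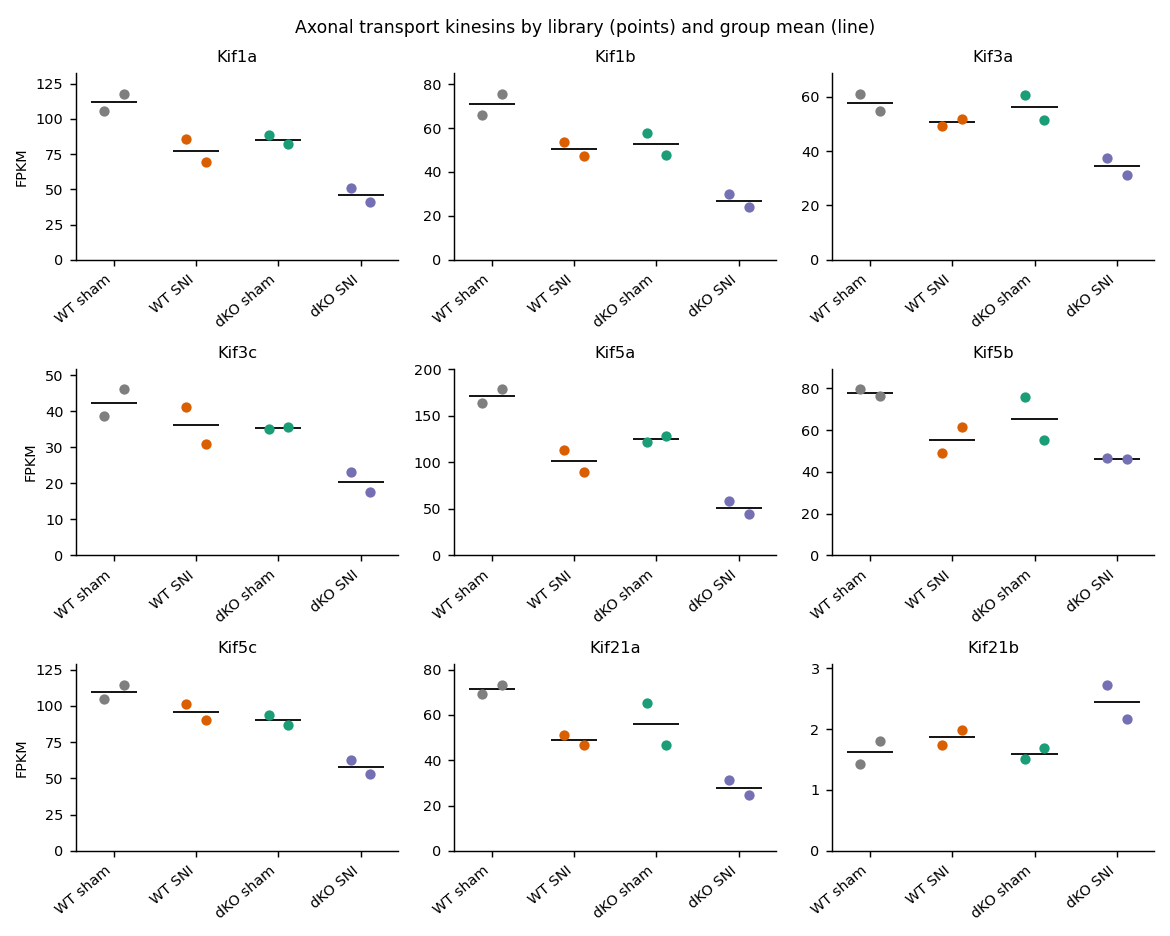
FPKM (vertical axis, from 0) of the 9 axonal kinesins in the 4 groups; points are the 2 libraries of a group and lines their mean. For 8 genes dKO SNI is the lowest group, as for Kif5a at 58.6 and 43.9 FPKM, whereas Kif21b is highest there at 2.72 and 2.17 FPKM.

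The make-up of the kinesin-1 heavy chains differed between sham and axotomy libraries. Kif5a made up 47.1 and 48.3% of their summed FPKM in WT after sham surgery and 43.1 and 37.0% after axotomy, and in dKO 41.8 and 47.4% after sham surgery and 34.9 and 30.7% after axotomy. Kif5c made up 30.1 and 31.0% in WT after sham surgery and 38.4 and 37.4% after axotomy, and in dKO 32.2 and 32.2% after sham surgery and 37.5 and 37.0% after axotomy. The Kif5c share was thus higher in each of the 4 axotomy libraries than in each of the 4 sham libraries. The Kif5b share ranged from 18.6 to 32.3% and overlapped between WT sham and WT SNI. In dKO it did not overlap, at 26.0 and 20.4% after sham surgery and 27.6 and 32.3% after axotomy. These shares are descriptions and were not tested. Within kinesin-2, Kif3b made up 13.4 to 13.8% of the summed Kif3 FPKM in the sham libraries and 15.5 to 17.5% in the axotomy libraries.

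**Figure D2:**
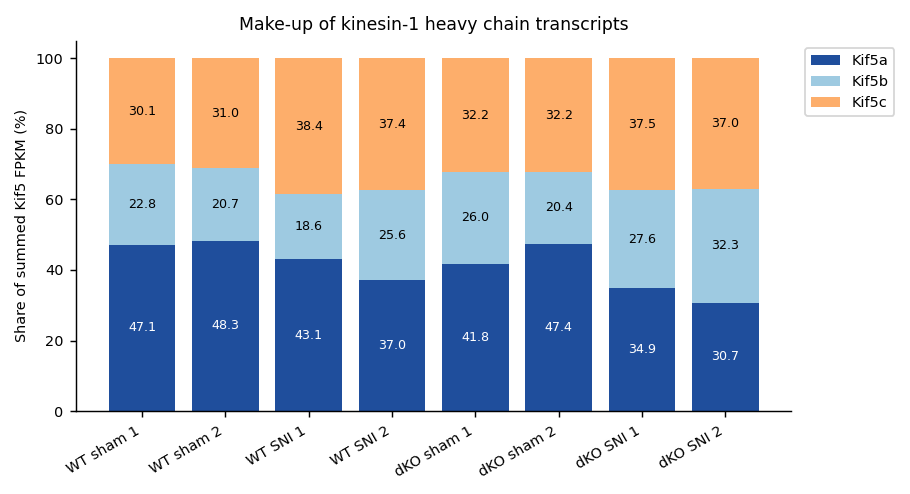
Share (%) of Kif5a, Kif5b and Kif5c in the summed FPKM of the 3 kinesin-1 heavy chain genes, 1 bar per library. The Kif5a share is 47.1 and 48.3% in WT sham and 34.9 and 30.7% in dKO SNI, and the Kif5c share is 37.0 to 38.4% in the axotomy libraries against 30.1 to 32.2% in the sham libraries.

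The highest mitotic kinesin in 7 of 8 libraries was the chromokinesin Kif22, which binds DNA and pushes chromosome arms (protein-coding, ENSMUSG00000030677.8, chr7:127027729-127042471, minus strand, GRCm38). Kif22 was at 0.939 and 0.910 FPKM in WT after sham surgery and 3.16 and 5.19 after axotomy, and in dKO at 1.00 and 2.03 after sham surgery and 8.33 and 9.45 after axotomy. In dKO sham 1, Kif11 was above it. Its share of the mitotic sum was 15.8 to 22.7% in the sham libraries and 27.5 to 31.7% in the axotomy libraries. Kif4, the other chromokinesin, which also organises the spindle midzone, was at 0.140 and 0.130 FPKM in WT after sham surgery and 0.351 and 0.502 after axotomy, and in dKO at 0.281 and 0.289 after sham surgery and 1.24 and 1.58 after axotomy. For both genes the axotomy libraries lay above the sham libraries of their genotype. Kif4 lies on the X chromosome and shares 15.1% of its exon bases with Pdzd11 on the opposite strand.

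Kif11 and Kif15 slide spindle microtubules apart and keep the spindle bipolar. Kif11 was at 0.687 and 0.899 FPKM in WT after sham surgery and 1.78 and 2.87 after axotomy, and in dKO at 1.08 and 1.56 after sham surgery and 5.15 and 4.80 after axotomy. Kif15 was at 0.212 and 0.201 FPKM in WT after sham surgery and 0.372 and 0.698 after axotomy, and in dKO at 0.294 and 0.312 after sham surgery and 2.07 and 1.88 after axotomy. The 2 dKO SNI libraries lay well above the other 6 for both genes.

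Kif20a, Kif20b, Kif23 and Kif14 act at the midzone and the contractile ring when the cell divides. Kif20a was at 0.490 and 0.443 FPKM in WT after sham surgery and 1.10 and 1.70 after axotomy, and in dKO at 0.977 and 0.862 after sham surgery and 3.62 and 3.48 after axotomy, and 29.3% of its exon bases overlap Cdc23 on the opposite strand. Kif23 was at 0.895 and 0.763 FPKM in WT after sham surgery and 1.18 and 1.71 after axotomy, and in dKO at 0.671 and 1.41 after sham surgery and 3.03 and 3.68 after axotomy. Kif23 was the only mitotic member whose dKO sham libraries overlapped those of WT sham. Kif20b reached 1.10 and 1.32 FPKM in dKO SNI and 0.275 to 0.750 FPKM in the other 6 libraries. Kif14 stayed at 0.0527 to 0.221 FPKM in those 6 and reached 0.527 and 0.468 FPKM in dKO SNI.

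The remaining mitotic members regulate microtubule ends. Kif2c, which depolymerises microtubules at centromeres, was at 0.122 and 0.214 FPKM in WT after sham surgery and 0.849 and 0.962 after axotomy, and in dKO at 0.232 and 0.454 after sham surgery and 1.58 and 2.18 after axotomy. Kif18a, which damps chromosome movements at the metaphase plate, was at 0.455 and 0.495 FPKM in WT after sham surgery and 0.582 and 1.19 after axotomy, and in dKO at 0.592 and 0.716 after sham surgery and 1.66 and 1.13 after axotomy. Kif18b, which limits the length of astral microtubules, was at 0.0101 and 0.122 FPKM in WT after sham surgery and 0.593 and 0.555 after axotomy, and in dKO at 0.536 and 0.620 after sham surgery and 1.97 and 1.16 after axotomy. Kif18b had overlapping levels in dKO sham and WT SNI and its lowest values in WT sham.

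**Figure D3:**
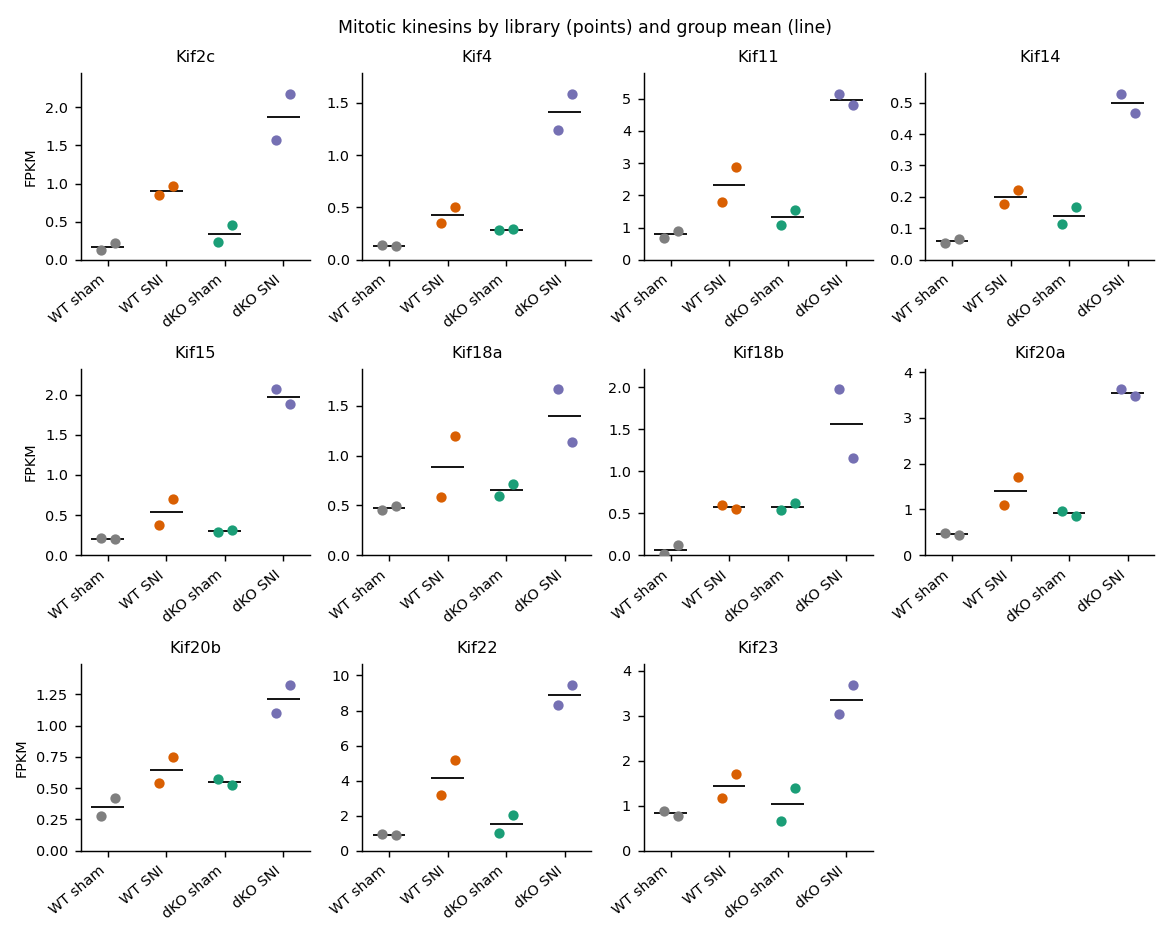
FPKM (vertical axis, from 0) of the 11 mitotic kinesins in the 4 groups; points are the 2 libraries of a group and lines their mean. For every gene shown both axotomy groups lie above the sham group of the same genotype, and Kif22 reaches the highest level, 8.33 and 9.45 FPKM in dKO SNI.

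Because the mitotic members were high together in the same libraries, their promoters are shown beside those of axonal members. RefSeq (GRCm38.p6) gave a window of 250 bases before to 50 bases after a transcription start for 10 of the 11 mitotic and 6 of the 9 axonal genes. The motif TTTGAA, read on both strands and so also as TTCAAA, is known as the cell cycle genes homology region, an element of genes transcribed late in the cell cycle. It was present in 9 of 10 mitotic windows (90%) and in 1 of 8 axonal windows (12.5%). The 9 include Kif2c and Kif14, whose RefSeq starts lie away from the gene starts of GENCODE, and without them 7 of 8 mitotic windows held it. Among all 32851 RefSeq windows, 17.9% held it, as did 11.6% of the 12699 windows of tested genes. Within 50 bases of the start, a range chosen after the positions were seen, 7 mitotic genes held it, against 4.94% of all windows. The 7 stretches follow, from 70 bases before to 30 bases after the start, 5′ to 3′, with TTTGAA and its complement and the CCAAT box and its complement ATTGG in capitals.
Kif22 (chr7:127042391-127042490, minus strand): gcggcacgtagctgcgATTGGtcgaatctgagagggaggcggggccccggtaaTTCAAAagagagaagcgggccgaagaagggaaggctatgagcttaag
Kif11 (chr19:37376312-37376411, plus strand): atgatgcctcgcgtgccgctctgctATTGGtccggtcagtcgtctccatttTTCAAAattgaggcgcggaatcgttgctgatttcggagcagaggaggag
Kif15 (chr9:122951011-122951110, plus strand): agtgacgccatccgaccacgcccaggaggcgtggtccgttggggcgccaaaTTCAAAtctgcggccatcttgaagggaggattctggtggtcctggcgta
Kif23 (chr9:61946770-61946869, minus strand): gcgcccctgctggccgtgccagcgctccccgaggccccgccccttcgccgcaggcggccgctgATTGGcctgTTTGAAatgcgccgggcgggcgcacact
Kif18b (chr11:102925095-102925194, minus strand): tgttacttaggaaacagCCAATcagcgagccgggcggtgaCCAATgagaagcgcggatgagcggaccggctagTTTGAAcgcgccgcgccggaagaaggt
Kif20b (chr19:34922288-34922387, plus strand): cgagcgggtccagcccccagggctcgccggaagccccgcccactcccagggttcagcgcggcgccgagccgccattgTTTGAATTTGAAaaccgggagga
Kif4 (chrX:100625995-100626094, plus strand): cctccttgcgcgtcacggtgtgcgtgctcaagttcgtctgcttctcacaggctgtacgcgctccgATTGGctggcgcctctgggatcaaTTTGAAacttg
The motif lay 17 bases before the start in Kif22, 19 before in Kif11 and in Kif15, 3 after in Kif23, 4 after in Kif18b, 8 and 14 after in Kif20b, and 20 after in Kif4. The CCAAT box occurred in 60% of mitotic windows, 37.5% of axonal windows and 37.4% of all windows. For contrast, the same stretch is given for the upstream start of Kif1a and for Kif5c, the most abundant axonal members with a window, and neither holds a match.
Kif1a (chr1:93101845-93101944, minus strand): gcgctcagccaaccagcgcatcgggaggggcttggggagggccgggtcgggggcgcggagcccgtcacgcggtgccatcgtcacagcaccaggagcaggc
Kif5c (chr2:49619216-49619315, plus strand): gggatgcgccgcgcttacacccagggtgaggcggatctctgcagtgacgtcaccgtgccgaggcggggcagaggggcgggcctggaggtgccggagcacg
A second RefSeq start of Kif1a had TTTGAA 44 bases before it, the single axonal match. Median GC content was 60.2% in the mitotic and 63.3% in the axonal windows. A match is a string of letters and was not tested as a site.

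Axotomy was compared with sham surgery within each genotype, which asks how the nerve lesion alone and the lesion in dKO ganglia changed the kinesins. The test was limma on log2(FPKM + 1), with p-values adjusted by Benjamini-Hochberg over the 12884 genes that reached 1 FPKM in 2 or more libraries, and a threshold of 0.05. It understates changes of genes below about 1 FPKM. All 9 axonal, 10 of 11 mitotic and 12 of 21 other kinesins entered it, and Kif14 did not. Of the mitotic members tested, 7 reached the minimum only in axotomy libraries (Kif2c, Kif4, Kif15, Kif18a, Kif18b, Kif20a and Kif20b), so their entry depended on being high there. The counts of called mitotic members and the median changes of the tested mitotic members describe the tested genes in every comparison below. They are no support for the set. The same holds for counts over all kinesins, which also include Kifc1 and Kifc5b, tested only through axotomy libraries. Changes are given as differences of log2(FPKM + 1) ± SE.

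In WT, Kif22 rose by 1.40 ± 0.23 (limma adjusted p = 0.00328, 4.51-fold in mean FPKM) and Kif11 by 0.87 ± 0.18 (adjusted p = 0.00995). Kif2c rose by 0.71 ± 0.16 (adjusted p = 0.0149), Kif20a by 0.70 ± 0.15 (0.0117) and Kif18b by 0.56 ± 0.18 (0.0458). Thus 5 of 10 tested mitotic kinesins were called higher, against 13.6% of all genes tested. Fewer of them were called without WT sham 1, WT sham 2 or WT SNI 2, and fewer of all genes tested were then called too. The call of Kif18b was also lost without WT SNI 1, dKO sham 1 or dKO sham 2. Without either dKO sham library its change stayed at 0.56, and calls over all genes tested did not fall. The others, Kif4, Kif15, Kif18a, Kif20b and Kif23, had changes of 0.29 to 0.41 and adjusted p-values of 0.136 to 0.217. Counting all 11 members without the test, both WT SNI libraries exceeded both WT sham libraries for 11, while 39.8% of tested genes showed that separation.

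Of the axonal kinesins, 2 of 9 were called lower in WT, against 9.38% of all genes tested. Kif5a fell by 0.76 ± 0.18 (limma adjusted p = 0.0161, 1.69-fold lower in mean FPKM) and Kif1a by 0.53 ± 0.16 (adjusted p = 0.0433). Kif21a, Kif5b and Kif1b had changes of similar size, -0.54 ± 0.18, -0.49 ± 0.18 and -0.48 ± 0.16, with adjusted p-values of 0.0595 to 0.0695. Kif3c, Kif5c and Kif3a had changes of -0.23 to -0.19, and Kif21b 0.13 ± 0.15 (adjusted p = 0.548). The libraries did not overlap for 7 of the 9, all lower, where 29.2% of tested genes were lower without overlap. The median change was -0.48 for the axonal and 0.49 for the tested mitotic kinesins, against 0.07 for all genes. Both axonal calls were lost when WT sham 1, the muscle-bearing WT sham 2 or WT SNI 2 was left out. In all, 9 of 31 kinesins tested were called in WT, against 23% of all genes tested, and only those of Kif22 and Kif26b held with every library left out in turn.

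In dKO, 8 of 9 axonal kinesins were called lower, against 24.6% of all genes tested. Kif5a fell by 1.28 ± 0.18 (limma adjusted p = 5.5e-04, 2.43-fold lower in mean FPKM), Kif21a by 0.97 ± 0.18 (0.00229), Kif1b by 0.94 ± 0.16 (0.00162) and Kif1a by 0.89 ± 0.16 (0.0021). Smaller falls were seen for Kif3c (-0.78 ± 0.18, adjusted p = 0.00682), Kif3a (-0.69 ± 0.15, 0.00433), Kif5c (-0.63 ± 0.15, 0.00648) and Kif5b (-0.47 ± 0.18, 0.0495). Kif21b rose by 0.41 ± 0.15 (adjusted p = 0.0452). The calls of Kif5b and Kif21b did not hold when some single libraries were left out, with adjusted p-values of up to 0.303 and 0.211, and that of Kif3c did not hold without dKO SNI 2 (adjusted p = 0.0569).

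Each of the 10 tested mitotic kinesins was called higher in dKO, against 23.8% of all genes tested. Kif22 rose by 2.00 ± 0.23 (limma adjusted p = 2.1e-04, 5.87-fold in mean FPKM), Kif11 by 1.37 ± 0.18 (4.4e-04), Kif20a by 1.25 ± 0.15 (3.0e-04) and Kif15 by 1.19 ± 0.15 (3.6e-04). Kif23 rose by 1.12 ± 0.20, Kif2c by 1.10 ± 0.16, Kif4 by 0.90 ± 0.15, Kif18b by 0.68 ± 0.18, Kif18a by 0.53 ± 0.19 and Kif20b by 0.51 ± 0.15, with adjusted p-values from 7.5e-04 to 0.0423. With some single libraries left out, the calls of Kif18a, Kif18b and Kif20b did not hold, with adjusted p-values of up to 0.209, 0.0693 and 0.109. Untested Kif14 was 3.54-fold higher in mean FPKM. All 11 mitotic members were higher without overlap of their libraries, where 37.7% of tested genes were, and 8 of 9 axonal members were lower, where 37.8% were. The median change was -0.78 for the axonal and 1.11 for the tested mitotic kinesins, against -0.00 for all genes. Over all kinesins, 26 of 31 were called in dKO, against 48.4% of all genes tested. This count includes members tested only through axotomy libraries, so it is no support for the family. Of the 26, 17 stayed called in every setting that tested them, each library left out in turn included.

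**Figure D4:**
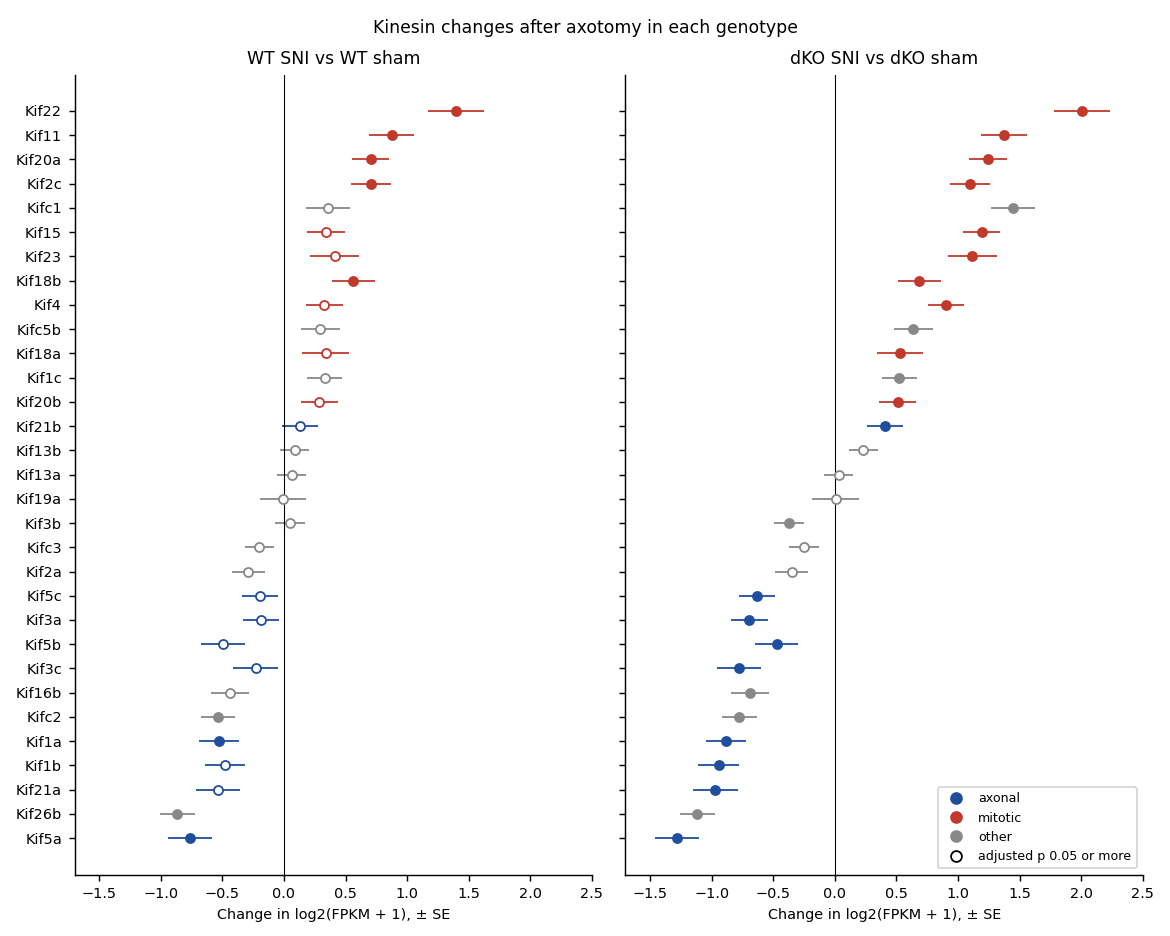
Difference in log2(FPKM + 1) ± SE between axotomy and sham for the 31 kinesins tested, WT on the left and dKO on the right, ordered by the mean of the 2 changes; filled points have an adjusted p under 0.05. Axonal kinesins (blue) lie left of 0 except Kif21b, and mitotic kinesins (red) lie right of 0, up to Kif22 at 1.40 in WT and 2.00 in dKO.

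The other kinesins moved in both directions. Their summed level was 80.1 to 82.8 FPKM over the sham libraries and 70.8 to 78.0 FPKM over the axotomy libraries. Kif26b, an atypical kinesin that binds microtubules without ATP-driven movement, was at 2.77 and 3.45 FPKM in WT after sham surgery and 1.32 and 1.17 after axotomy, and in dKO at 2.78 and 2.42 after sham surgery and 0.710 and 0.609 after axotomy. It fell by 0.86 ± 0.14 in WT (limma adjusted p = 0.00345) and by 1.12 ± 0.14 in dKO (adjusted p = 3.6e-04). Kifc2, a minus-end-directed motor found mainly in neurons, was at 10.5 and 9.49 FPKM in WT after sham surgery and 6.90 and 6.27 after axotomy, and in dKO at 11.05 and 11.04 after sham surgery and 6.84 and 5.32 after axotomy. It fell by 0.53 ± 0.14 in WT (adjusted p = 0.0242) and by 0.78 ± 0.14 in dKO (adjusted p = 0.0019). Both dKO sham libraries lay slightly above both WT sham libraries in Kifc2, and all axotomy libraries lay below the sham libraries.

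Kifc1, a minus-end-directed motor that focuses spindle poles, was not in the mitotic list but was high in the same libraries. It was at 0.548 and 0.730 FPKM in WT after sham surgery and 0.873 and 1.35 after axotomy, and in dKO at 0.385 and 0.726 after sham surgery and 2.85 and 3.59 after axotomy. It rose by 1.44 ± 0.18 in dKO (limma adjusted p = 3.1e-04), and Kifc5b by 0.64 ± 0.16 (0.00913). Kifc5b is a near-identical copy of Kifc1, so the division of reads between them is uncertain, and both entered the test only through axotomy libraries. In dKO, the endosomal motor Kif16b fell by 0.69 ± 0.15 (0.00529) and Kif3b by 0.37 ± 0.12 (0.0317), and Kif1c, which carries membrane cargo in many cell types, rose by 0.52 ± 0.14 (0.0141). The dKO calls of Kif3b, Kif1c and Kifc5b did not hold when some single libraries were left out. The most abundant of the 21 were Kif2a at 10.6 to 17.3 FPKM, Kif3b at 10.4 to 16.6 FPKM and Kif13b at 8.26 to 10.9 FPKM. Kif2a and Kif13b were called in neither genotype. Kif2a was nevertheless lower without overlap after axotomy in both, with -0.35 ± 0.13 in dKO (limma adjusted p = 0.0529). Kif12 and Kif2b were listed at 0 in every library, and Kif6, Kif24 and Kif27 stayed under 0.5 FPKM.

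The genotypes were compared without and with the lesion. They differ in carrying Advillin-Cre as well as in the deletion, and the 2 cannot be told apart. Advillin (Avil) was at 172 and 180 FPKM in WT sham and 75.3 and 80.0 in dKO sham. After axotomy it was at 143 and 112 in WT and 44.1 and 34.5 in dKO. Myh9 was at 27.2 and 31.6 FPKM in WT sham, 10.9 and 12.1 in dKO sham, 30.8 and 29.7 in WT SNI and 24.6 and 24.4 in dKO SNI. In the same order Myh10 was at 18.1 and 23.5, 12.2 and 14.4, 13.8 and 10.4, and 5.31 and 4.12. Between dKO sham and WT sham limma called 0 of 31 kinesins, and 0.155% of all genes tested. At an unadjusted p under 0.05 there were 5 (Kif1a, Kif1b, Kif5a, Kif18b and Kif20a) and 10.8% of all genes. The libraries of dKO sham lay below those of WT sham without overlap for 7 of 9 axonal kinesins, where 18.3% of tested genes did. They lay above for 10 of 11 mitotic kinesins, where 27.8% of tested genes did. The largest differences were 0.57 ± 0.18 for Kif18b (limma adjusted p = 0.303) and -0.45 ± 0.18 for Kif5a (adjusted p = 0.409). The medians were -0.28 and 0.20, against 0.04 for all genes.

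After axotomy the genotypes differed in more kinesins. In dKO SNI against WT SNI, 7 of 9 axonal kinesins were called lower, against 13.4% of all genes tested, and 8 of 10 tested mitotic kinesins higher, against 10.7%. Of the tested mitotic members, Kif2c, Kif4, Kif15, Kif18b and Kif20b reached 1 FPKM only in dKO SNI. Their entry thus depended on being high in that group, and the mitotic count is no support for a genotype difference of the set. Kif5a had -0.97 ± 0.18 (limma adjusted p = 0.0113), Kif1b had -0.89 ± 0.16 (0.0113), and Kif21a and Kif3c -0.80 ± 0.18 each (0.0169 and 0.0172). Kif1a, Kif5c and Kif3a had -0.74 to -0.55. Kif5b (-0.24 ± 0.18, adjusted p = 0.329) and Kif21b (0.26 ± 0.15, 0.208) were not called. Kif22 and Kif15 were higher by 0.96 (adjusted p = 0.0195 and 0.00934) and Kif20a by 0.93 ± 0.15 (0.0103), while Kif18a (0.35 ± 0.19, 0.188) and Kif20b (0.43 ± 0.15, 0.0631) were not called. Without WT SNI 1, or without dKO SNI 2, none of the 18 kinesin calls of this comparison (24.1% of all genes tested) held, and only 10 and 11 of the 12884 genes were then called.

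Averaging over the other factor balances the libraries with Y-linked transcripts. Axotomy against sham, averaged over both genotypes, had 8 of 9 axonal kinesins lower, against 25.5% of all genes tested, and 10 of 10 tested mitotic kinesins higher, against 29.5%. Kif22 rose by 1.70 ± 0.16 (limma adjusted p = 4.6e-05), Kif11 by 1.12 ± 0.13 (1.3e-04) and Kif20a by 0.97 ± 0.11 (1.05e-04). Kif5a fell by 1.02 ± 0.13 (1.9e-04), Kif21a by 0.75 ± 0.13 (0.00104), and Kif5c by 0.42 ± 0.10 (0.00774). Kif21b had 0.27 ± 0.10 (0.0525). Among the other kinesins Kif2a, a microtubule depolymerase that shapes neurites, fell by 0.32 ± 0.09 (0.0167). Of 31 kinesins tested 26 were called, against 55% of all genes, and 21 of them stayed called in every setting that tested them. The mitotic count and the count over all kinesins again include members tested only through axotomy libraries.

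The genotype difference averaged over surgeries had 6 axonal kinesins lower, against 10.4% of all genes tested, and 8 tested mitotic kinesins higher, against 11.8%. The mitotic count again includes members that entered the test only through dKO SNI, and it is no support for the set. Kif5a had -0.71 ± 0.13 (limma adjusted p = 0.0131), Kif1b -0.66 ± 0.12 (0.013) and Kif20a 0.66 ± 0.11 (0.0116). Of 31 kinesins tested 16 were called, against 22.2% of all genes, and only these 3 stayed called in every setting that tested them. Leaving out WT sham 2, WT SNI 1, dKO sham 2 or dKO SNI 2 left fewer axonal kinesins called lower and fewer mitotic kinesins called higher. Leaving out WT sham 1 also left fewer mitotic kinesins called higher. In each of these runs fewer of all genes tested were called too. The difference between the injury responses of dKO and WT was tested directly. Limma called 0 of 31 kinesins for it, and 0.0543% of all genes tested. At an unadjusted p under 0.05 there were 7 kinesins (Kif3a, Kif3b, Kif4, Kif15, Kif20a, Kif23 and Kifc1), and 14.5% of all genes. Kifc1 had 1.09 ± 0.25 (adjusted p = 0.210), Kif15 0.85 ± 0.22 (0.228) and Kif5a -0.52 ± 0.25 (0.369). A larger injury response of the kinesins in dKO was thus not shown by this test, and the Y-linked transcripts follow the same contrast, so the 2 cannot be told apart.

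Partners of the transport kinesins were mostly not called in WT. Of 45 listed partners, such as kinesin light chains, cargo adaptors, dynein and dynactin, 44 were tested. In WT, 2 were called higher (Bicd2 and Nde1) and 3 lower (Dctn1, Dync1i1 and Dynll2), a smaller share than the 23% called over all genes tested. In dKO, 2 were higher, again Bicd2 and Nde1, and 21 lower, where 23.8% of all genes were higher and 24.6% lower. Dctn1, the large dynactin subunit that binds microtubules, fell by 0.68 ± 0.18 in WT (limma adjusted p = 0.0246) and by 1.32 ± 0.18 in dKO (4.4e-04). Klc2, a kinesin-1 light chain, was at 88.1 and 93.3 FPKM in WT after sham surgery and 72.0 and 50.3 after axotomy, and in dKO at 76.8 and 85.4 after sham surgery and 33.5 and 25.0 after axotomy. It fell by 1.45 ± 0.20 in dKO (4.4e-04). Dync1i1 and Dynll2, a dynein intermediate and a light chain, fell by 1.46 ± 0.20 and 1.20 ± 0.17 in dKO. Bicd2, a dynein adaptor, was at 13.7 and 13.9 FPKM in WT sham and 21.8 and 20.0 in WT SNI, a rise of 0.57 ± 0.12 (0.00936). Median changes of the partners were -0.16 in WT and -0.39 in dKO.

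Most listed partners of the mitotic kinesins were called higher after axotomy. Of 35 listed spindle and cell division partners, 25 were called higher in WT (13.6% of all genes tested) and 34 in dKO (23.8%), and 29 were higher in dKO SNI than in WT SNI (10.7%). Of the 35, 11 reached the minimum only in axotomy libraries, among them Bub1, Ttk and Cenpf, so their entry depended on being high there and the counts describe the tested genes only. E2f1, a transcription factor of S-phase entry, was the single partner called lower, with -0.57 ± 0.16 in WT (limma adjusted p = 0.0308) and -0.67 ± 0.16 in dKO (0.00804). Prc1, which bundles midzone microtubules and binds Kif4, was at 0.832 and 1.27 FPKM in WT after sham surgery and 11.3 and 13.6 after axotomy, and in dKO at 2.64 and 2.64 after sham surgery and 15.2 and 13.3 after axotomy. It rose by 2.72 ± 0.15 in WT (1.5e-05) and by 2.07 ± 0.15 in dKO (4.5e-05). Ube2c, a ubiquitin-conjugating enzyme of mitotic exit, was the single partner called between the sham groups, 1.56 ± 0.16 higher in dKO (0.00599). Cdk1, the mitotic kinase, rose by 1.37 ± 0.21 in WT, and in dKO Plk1 and Birc5 rose by 1.79 ± 0.16 and 1.47 ± 0.16. The mitotic kinesin sum was 11.4 to 13.9% of the partner sum in the sham libraries and 13.7 to 17.8% in the axotomy libraries.

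Some lists of cell type markers changed in the direction of a kinesin group after axotomy, and others did not. Of the 12 neuron markers, 5 were called lower in WT (9.38% of all genes tested) and 9 in dKO (24.6%), with median changes of -0.58 and -0.93, beside -0.48 and -0.78 for the axonal kinesins. Per 100 FPKM of the 12 neuron markers, the axonal sum was 9.66 and 9.61 FPKM in WT after sham surgery and 6.96 and 7.87 after axotomy, and in dKO 9.18 and 7.42 after sham surgery and 7.05 and 8.06 after axotomy. On that scale the dKO groups overlapped, while the WT groups did not. The neuron sum itself was 3521 to 7850 FPKM and includes Stmn2, at 1461 and 1252 FPKM in WT SNI against 910 and 912 FPKM in WT sham. It also includes Tubb3, at 2085 and 1669 FPKM in WT SNI against 1348 and 1385 FPKM in WT sham. The sum did not fall in WT SNI 1, at 7850 FPKM against 7147 and 7677 in WT sham.

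Of all genes tested, 13.6% were called higher in WT and 23.8% in dKO, which is the background for the marker counts that follow. Macrophage markers (9 of 9 called higher in each genotype) summed to 24.8 to 34.1 FPKM in WT sham, 201 to 204 in WT SNI, 37.9 to 52.6 in dKO sham and 320.3 to 376 in dKO SNI. Of the 9, Cd163 reached the minimum for testing only in axotomy libraries, so its entry depended on being high there. Neutrophil and myeloid precursor markers (8 of 11 higher in WT, 11 of 11 in dKO) summed to 707 to 950 FPKM in WT sham, 1275 to 2516 in WT SNI, 695 to 1121 in dKO sham and 6932 to 7114 in dKO SNI. In both sums dKO SNI was the highest group, as it was for the mitotic kinesin sum. Erythroid markers, including Gata1 and Klf1 of precursors, summed to 1302 to 1378 FPKM in WT sham, 2008 to 5236 in WT SNI, 2062 to 5293 in dKO sham and 3156 to 7846 in dKO SNI. The mitotic kinesin sum was higher in library 2 than in library 1 of every group. The macrophage and fibroblast sums were so in all groups but WT sham. The myeloid sum was so in all but dKO SNI, and the erythroid sum only in WT SNI and dKO sham. Within dKO SNI erythroid markers were 7846 and 3156 FPKM and myeloid markers 7114 and 6932, at mitotic sums of 30.3 and 31.1. These pairs of libraries were not tested. Fibroblast markers (7 of 7 called higher in WT, 5 of 7 in dKO) summed to 190.4 to 280 FPKM in WT sham, 544 to 833 in WT SNI, 421 to 528 in dKO sham and 1037 to 1317 in dKO SNI, again highest in dKO SNI. The 10 lymphocyte markers summed to 0.957 to 1.53 FPKM in WT sham, 7.06 to 10.6 in WT SNI, 5.18 to 9.25 in dKO sham and 10.1 to 17.2 in dKO SNI. Of these, 3 were tested, the B-cell genes Cd79a, Cd79b and Ms4a1, and 3 were called higher in WT and 0 in dKO. Defining T-cell genes were low, with Cd3e, Cd3d and Cd8a under 0.5 FPKM in every library, Cd3g at up to 0.639 and Cd4 at up to 0.775 FPKM. Satellite glia markers summed to 781 to 821 FPKM in WT sham, 913 to 970 in WT SNI, 901 to 993 in dKO sham and 1091 to 1122 in dKO SNI. In the same order, Schwann cell markers summed to 2130 to 2659, 3158 to 3719, 2995 to 4483 and 2627 to 3152 FPKM. Endothelium and pericyte markers summed to 61.8 to 73.0, 60.2 to 72.1, 72.3 to 80.1 and 74.4 to 75.7 FPKM. The part of these cell types in the kinesin levels was not tested.

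**Figure D5:**
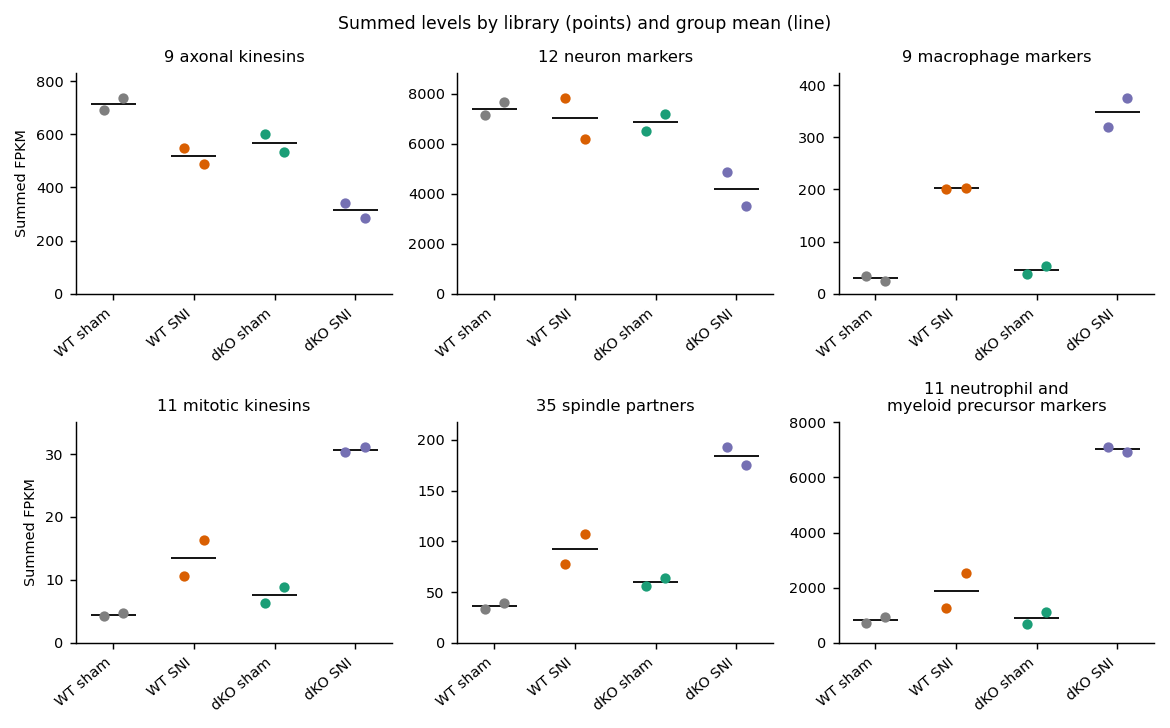
Summed FPKM (vertical axes, from 0) of axonal kinesins, neuron markers, macrophage markers, mitotic kinesins, spindle partners, and neutrophil and myeloid precursor markers; points are the 2 libraries of a group and lines their mean. The mitotic kinesin sum reaches 30.3 and 31.1 FPKM in dKO SNI, the group in which the spindle partner, macrophage and myeloid sums are also highest and the axonal kinesin sum, 343 and 284 FPKM, is lowest.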

How the data were processed

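The authors deposited 1 table of FPKM values with 21878 gene symbols and 8 library columns, each matched to its sample by the name in that sample's description. Per the labels' protocols, RNA was column-purified and TruSeq RNA libraries were sequenced from both ends. Strand is not stated. Tools in the submitters' processing notes are the aligner HISAT2 2.0.4, the quantifier StringTie 1.3.0 and edgeR, without a stated role, and the named builds are mm10 and GRCm38.p4. The annotation is not given in the sources used here. FPKM divides by library total and transcript length, so very abundant transcripts lower all others.

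The 12884 genes that reached 1 FPKM in 2 or more libraries were tested with limma 3.58.1 in R 4.3.3 on log2(FPKM + 1), with a mean for each group fitted to all 8 libraries, leaving 4 residual degrees of freedom, a mean-variance trend, two-sided tests and Benjamini-Hochberg adjustment over all genes at 0.05. The test was checked on simulated data. FPKM are not counts, so no count model was run. Named were all axonal and mitotic kinesins, other kinesins called with a change of at least 0.5 or among the 3 most abundant, and the 4 partners per list with the smallest p in each injury comparison. E2f1, Bub1, Ttk, Cenpf, Ube2c between the sham groups, Dynll2 in WT and the kinesins listed at 0 or under 0.5 FPKM were added after their values were seen. The members and gene lists were chosen with earlier results of these data known. Exon overlaps came from GENCODE (GRCm38) and promoters from RefSeq. Alternatives were another pseudocount, filters, scalings, the replicate block, pairs of groups alone and each library left out.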

Additional observations from a re-analysis of the deposited data

How the results depend on the processing

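No kinesin call changed sign in any setting tried. With no filter on low values, the axonal kinesins lower in WT SNI against WT sham numbered 1, and the genotype difference averaged over surgeries had 5 mitotic kinesins higher and 10 kinesins called. With median centring 4, and with the 2 groups compared alone 5, axonal kinesins were lower in WT. Quantile normalization left 2 mitotic kinesins higher in WT. Requiring 1 FPKM in 4 libraries tests fewer mitotic members by construction. It left 3 higher in WT, and 4 each in dKO, in dKO SNI against WT SNI, and in both averaged comparisons, with 17 kinesins called for averaged axotomy. Leaving out each library in turn gave, in WT, 0 to 3 axonal lower, 1 to 5 mitotic higher and 2 to 10 called. In dKO it gave 6 to 8, 7 to 10 and 18 to 26. In dKO SNI against WT SNI it gave 0 to 7, 0 to 8 and 0 to 19. For averaged axotomy it gave 8 axonal lower throughout, 9 to 10 mitotic higher and 23 to 26 called, and for averaged genotype 2 to 7, 1 to 8 and 3 to 19. When a group was left with 1 library, that library was assumed to vary like the other groups. Calls over all genes tested also fell in many of these runs, so fewer calls there were not a trait of the kinesins alone.

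Correlations of the deviations of same-numbered libraries were -0.19 to 0.25, which cannot decide whether replicate numbers pair some of the libraries. The main test used no pairing. With the replicate block 3 axonal kinesins were lower and 4 mitotic kinesins higher in WT, 7 and 10 in dKO, 7 and 8 in dKO SNI against WT SNI, 8 and 10 for averaged axotomy, and 6 and 8 for averaged genotype. No kinesin was called between the sham groups or for the difference of the injury responses in any setting listed here. Read depth is unknown, and levels under 1 FPKM, where most mitotic kinesins lie in sham ganglia, are imprecise to an extent that could not be given.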

Other observations

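Cenpe, a centromere-bound kinesin of the mitotic spindle whose symbol lies outside the naming rule, was high in the same libraries as the mitotic members. It is also among the listed spindle partners, and it entered the test only through axotomy libraries. It was at 0.258 and 0.199 FPKM in WT after sham surgery and 0.656 and 1.12 after axotomy, and in dKO at 0.418 and 0.445 after sham surgery and 1.70 and 1.34 after axotomy. It rose by 0.61 ± 0.16 in WT (limma adjusted p = 0.0274) and by 0.81 ± 0.16 in dKO (adjusted p = 0.00343). Stard9, another spindle kinesin named outside the rule, was at 0.903 to 1.85 FPKM and was called in neither genotype, with 0.25 ± 0.15 in WT (adjusted p = 0.234) and 0.24 ± 0.15 in dKO (0.193). Kif1bp, which binds and restrains several kinesins, was at 40.3 and 40.8 FPKM in WT after sham surgery and 32.8 and 29.6 after axotomy, and in dKO at 37.2 and 34.98 after sham surgery and 22.9 and 17.1 after axotomy. It fell by 0.84 ± 0.15 in dKO (limma adjusted p = 0.00203) and was not called in WT (-0.37 ± 0.15, adjusted p = 0.108). In dKO its transcript was thus lower in the libraries in which 8 of 9 axonal kinesins were lower and the tested mitotic kinesins higher.

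The TTTGAA motif was also frequent in the spindle partners, in 22 of 32 windows (68.8%), and was present in 5 of 47 windows (10.6%) of the transport partners. Within 50 bases of the start it was present in 62.5% of the spindle partner windows and in 0 of the transport partner windows. Among the other kinesins it lay within 50 bases of the start in Kif26b, Kifc1 and Kifc5b. Kif26b fell after axotomy while Kifc1 rose in dKO, so a match near the start was not shared only by genes that rose.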
